A study of Gallus gallus with 21 samples.

Results

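The 57 genes described here are short, very abundant nuclear genes of the chick trunk neural tube, 57 of the 24356 genes in the count table. They were chosen by position and by the mean level over all libraries: a gene on chromosomes 1 to 15, 17 to 28, 30 or 33, with an exon length of 1000 bases or less, at least 2 exon records, a span under 300000 bases, and a mean of at least 200 CPM (the count of a gene scaled to the total of its library). Their high level and short length were thus the terms of the choice and are no finding. No group of samples entered the choice, so comparisons between groups and relations across libraries do not repeat it.

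The samples were trunk neural tubes, the forerunner of the spinal cord, from 21 chick embryos, sequenced as poly(A) RNA. In 9 libraries the embryos were controls (CTRL, genotype WT), and in 12 MOXD1 had been targeted with CRISPR/Cas9 (KO, genotype MOXD1 KO) ahead of lineage commitment of the trunk neural crest. For all constructs, injection was into the neural tube lumen at Hamburger Hamilton stage 10+/11 with electroporation in ovo of one side, so KO libraries can hold unedited cells; which construct the controls received and the stage at collection are not known from the sources used here. The gene IDs of the table come without symbols, and a search of a RefSeq list of another chicken assembly found 0 of the 24356, so genes are given by ID and position and the level of MOXD1 and of cell type markers was not analysed.

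In vertebrate genomes, genes with few, short exons and very abundant messenger RNA are typically housekeeping or cell-type genes with small protein products, among them the proteins of the cytosolic ribosome, small subunits of the respiratory chain that are encoded in the nucleus, and, in red blood cells, the globins. Transcripts of the mitochondrial genome (MT) are also short and abundant, carry poly(A) tails and so enter poly(A) libraries beside the nuclear ones. Which of the 57 genes belongs to which of these classes was not analysed here.

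Total counts ran from 16164404 to 21133788 per library. CTRL replicate 1 and KO replicate 8 had been set apart from the other 19 libraries in earlier work on these data. Values that rest on them are given with and without them where both were taken. In bulk tissue, fewer cells of a type and less RNA per cell cannot be told apart.

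The 57 genes lay on 23 chromosomes, 10 of them on chromosome 1 and 5 on chromosome 14, with 33 on the plus and 24 on the minus strand. Their exon length ran from 276 to 999 bases with a median of 666, and they had 2 to 14 exon records with a median of 5. The whole gene was compact too: the median span was 2518 bases and the longest 21606. This was not particular to the 57 genes. For 305 genes that met the other terms at a mean of 20 to 200 CPM the median span was 2862 bases. For 749 longer genes that met the other terms it was 16740 bases. A small span thus went with the limit on exon length. For 2 of the 57 genes exons overlapped another annotated gene on the same strand, whose shared reads the counting left out. A gene on the other strand was overlapped by 10 of the 57. At the edge of the choice, ENSGALG00000026978 (chromosome 12, 967160 to 970056, GRCg6a) was just inside with 202 CPM, and the next short gene, on chromosome 11 at 17610547 to 17614743, just outside with 198 CPM. By length, ENSGALG00000016775 (chromosome 1, 134671350 to 134676353) was just inside with 999 bases, and a gene on chromosome 4 at 9383205 to 9391216 just outside with 1004 bases.

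The mean level ran from 202 to 1678 CPM with a median of 433 CPM, and 6 of the 57 genes reached 1000 CPM. Per kilobase of exon, the mean level ran from 211 to 3107 CPM with a median of 768. ENSGALG00000017347 (chromosome 1, minus strand, 197288212 to 197289402) had the highest level on both scales, at 1678 CPM and 3107 CPM per kilobase. ENSGALG00000023740 (chromosome 14, plus strand, 12503627 to 12505300) followed at 1603 CPM and 2396 CPM per kilobase. ENSGALG00000026383 (chromosome 1, plus strand, 124544398 to 124546072) was the next at 1353 CPM and 1845 CPM per kilobase.

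These 3 most abundant genes were spread over the libraries in different ways. ENSGALG00000017347 stood at 164, 1050 and 9829 CPM in the lowest, median and highest CTRL library and at 284, 800 and 2845 CPM in KO. ENSGALG00000023740 stood at 129, 980 and 10387 CPM in CTRL and at 242, 754 and 2330 CPM in KO. For both genes 1 library, CTRL replicate 2, lay far above the other 20, and the remaining controls and the KO libraries overlapped. ENSGALG00000026383 was steadier, at 960, 1208 and 1935 CPM in CTRL and 804, 1346 and 2080 CPM in KO, with the KO range enclosing that of CTRL.

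Together the 57 genes took 1.81% to 6.11% of all counts of a library. The lowest share was that of CTRL replicate 9, at 1.81% (95% Wilson interval 1.80% to 1.81%), and the highest that of CTRL replicate 2, at 6.11% (6.10% to 6.13%). These intervals cover counting error only and are far narrower than the spread between embryos. The lowest, median and highest shares were 1.81%, 3.01% and 6.11% in CTRL and 2.28%, 2.79% and 3.92% in KO, so the KO libraries lay inside the CTRL range.

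**Figure D1:**
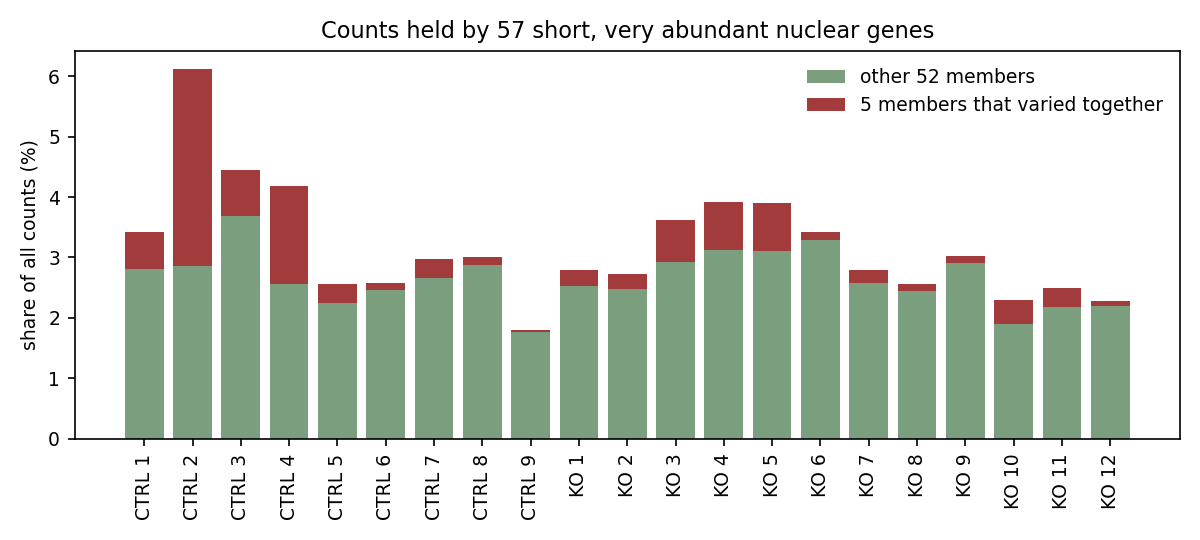
Share of all counts (%, bar height from 0) held by the 57 genes in each of 9 CTRL and 12 KO libraries, split into 5 genes that varied together (red) and the other 52 (green). CTRL replicate 2 reached 6.11%, of which the 5 genes made up 3.25%; without the red part the libraries lie between 1.76% and 3.69%.

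The shares of CTRL replicates 2 and 4 came in large part from 5 genes that varied together. ENSGALG00000017347 and ENSGALG00000035309 lie 11003 bases apart on chromosome 1 (minus strand, 197275578 to 197289402). ENSGALG00000023740, ENSGALG00000031597 and ENSGALG00000043234 lie within 5047 bases of each other on the plus strand of chromosome 14 (12503627 to 12511196). Each had 3 exon records, an exon length of 536 to 669 bases and a span of 849 to 1674 bases. They were grouped after their values were seen, by a Pearson r over 0.9 of log2 CPM with the most abundant gene across the 21 libraries, so the grouping carries no test.

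Among the 5 genes, r between pairs ran from 0.99 to 1.00 across the 21 libraries, within and between the chromosomes alike. Their SD of log2 CPM was 1.48 to 1.55, against a median of 0.32 for the other 52. Together they held 0.0479%, 0.315% and 3.25% of all counts in the lowest, median and highest CTRL library and 0.0836%, 0.260% and 0.804% in KO. All 5 were highest in CTRL replicate 2 and lowest in CTRL replicate 9, and in CTRL replicate 2 they made up 53.1% of the counts of the 57 genes. The level of each in CTRL replicate 2 was 9.17 to 11.3 times the median of the other controls. Their ratios to each other moved far less than their levels: the log2 ratio of ENSGALG00000043234 to ENSGALG00000031597 had a mean of 0.46 and an SD of 0.12 over the 21 libraries, the smallest of the 10 ratios, and the largest SD was 0.26.

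Among 10652 genes whose mean was 5 CPM or more, 13 outside the 57 also reached an r over 0.9 with ENSGALG00000017347 in log2 CPM. The closest was a gene of chromosome 8 at 20767812 to 20771114 (r = 0.99, mean 12.6 CPM), followed by a gene of chromosome 20 at 6698519 to 6707788 (r = 0.97, mean 9.34 CPM). The most abundant of the 13 was a gene of chromosome 27 at 5419090 to 5434440 (r = 0.97), with an exon length of 5868 bases and a mean of 208 CPM. All of these r values come from the same 21 libraries.

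**Figure D2:**
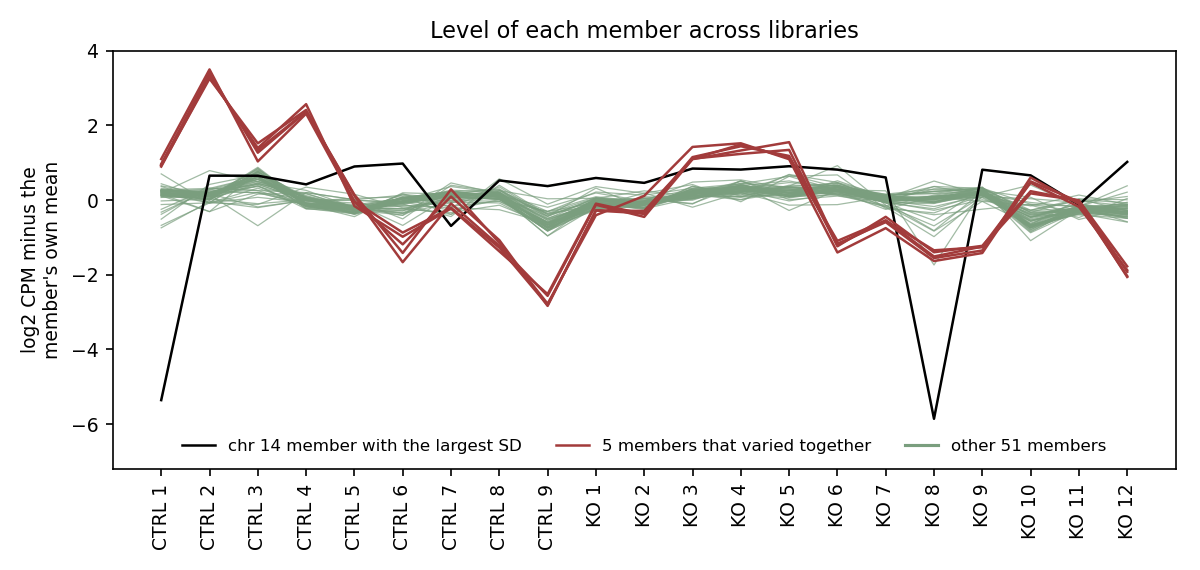
Level of each of the 57 genes in each library, as log2 CPM minus the gene's own mean over 21 libraries. The 5 genes that varied together (red) peak in CTRL replicate 2 and are lowest in CTRL replicate 9, and ENSGALG00000030546 (black) drops in CTRL replicate 1 and KO replicate 8. Most of the other 51 (green) stay near their means. Among them ENSGALG00000008367 drops in KO replicate 8, to 200 CPM against a KO median of 725 CPM.

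The other 52 genes were steadier and most of them also varied together. The median r of log2 CPM between pairs was 0.75 over 1326 pairs, and 0.78 without CTRL replicate 1 and KO replicate 8. Between the 5 genes and these 52 the median r was 0.37. For all 57 genes the median was 0.64 over 1596 pairs, against 0.037 over 280126 pairs of the 749 longer genes that met the other terms of the choice, and -0.016 between the 57 and the 749. The 749 were a mixed pool. Their median r with the level of the 52 was 0.64 for genes over 1000 and up to 1500 bases. It was -0.56 for genes over 5000 bases. For the 305 short genes of 20 to 200 CPM it was 0.59. By the same measure the 57 genes had a median of 0.91, but 52 of them make up that level. Going with the 52 was thus weaker outside the chosen genes but not particular to them. These are descriptions over the same 21 libraries, and genes are not independent replicates.

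As a share of counts without MT, the 52 genes held 1.89%, 2.89% and 3.97% in the lowest, median and highest CTRL library and 2.04%, 2.77% and 3.83% in KO. The highest library by this share, CTRL replicate 3, gave the highest level of 34 of the 52 genes in CPM, which has MT counts in the total. KO replicate 6, at 3.83% by the share without MT, gave the highest CPM of 2. The lowest library by this share, CTRL replicate 9, gave the lowest CPM of 23. CTRL replicate 9 was also the control with little signal from the W chromosome, which female birds carry (0.00455% of counts); 5 KO libraries with as little W signal ran from 2.04% to 3.49% for the 52 genes, over most of the KO range. The part of this in the shares was not tested.

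Some genes went against the common pattern, and 75 of the 1326 pairs had a negative r over all 21 libraries. ENSGALG00000030546 (minus strand of chromosome 14, 8815486 to 8821411) had the largest SD of the 57, at 1.90. CTRL replicate 1 had 3.96 CPM of it and KO replicate 8 had 2.80 CPM, while the remaining 19 libraries ran from 100 to 330 CPM (median 256 CPM). Without these libraries its SD was 0.41, still above the upper quartile of 0.36 of the 52 genes over all 21 libraries (median 0.32). A gene of chromosome 10 at 1762469 to 1763840, singled out after its values were seen, had a median r of -0.047 with the other 51. It stood at 439, 666 and 893 CPM in the lowest, median and highest CTRL library and at 356, 770 and 930 CPM in KO, lowest overall in KO replicate 8 and CTRL replicate 1. A neighbour among the 57, 27137 bases away, did not follow it (r = -0.23). Both r values are over all 21 libraries and were not taken without CTRL replicate 1 and KO replicate 8, so they may rest on them. In counts without MT, the log2 level of this chromosome 10 gene at 1762469 had an r of 0.25 with the log2 MT share, and of 0.46 without those libraries. A gene of chromosome 20 at 10750391 to 10753196, also singled out after its values were seen, had a median r of 0.0090 with the other 51 over all 21 libraries. It was not low in CTRL replicate 1 (282 CPM, CTRL median 240 CPM) or KO replicate 8 (279 CPM, KO median 215 CPM).

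The 2 steadiest genes of the set both had an r with the log2 MT share above the upper quartile of the 57 (0.60). ENSGALG00000014567 (minus strand of chromosome 1, 78015335 to 78020461) had an SD of 0.21, at 212, 257 and 304 CPM in CTRL and 213, 271 and 353 CPM in KO. ENSGALG00000049136 (minus strand of chromosome 33, 6659100 to 6661874) had an SD of 0.22, at 300, 366 and 436 CPM in CTRL and 323, 400 and 549 CPM in KO. The ranges of the groups overlapped for both, and KO replicate 4 was the highest library of each. In counts without MT, the log2 level of ENSGALG00000049136 had the highest r with the log2 MT share among the 57, at 0.74, and ENSGALG00000014567 reached 0.65. ENSGALG00000030546 had the lowest, at -0.015, or 0.25 without CTRL replicate 1 and KO replicate 8.

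The comparison of KO with CTRL asked whether these genes differ in the neural tube when MOXD1 is targeted. None passed: of 57 genes, all of which passed the filter on low counts, 0 had an adjusted p under 0.05 by edgeR's quasi-likelihood test, as did 0% of the 13809 genes tested. The smallest adjusted p among the 57 was 0.704. DESeq2 called 0 of the 57 as well (smallest adjusted p 0.688) and had 2 with an unadjusted p under 0.05, beside 6.34% of the 20966 genes it tested. Before adjustment, 2 of the 57 had an edgeR p under 0.05, 1 in each direction, against 7.08% of the 13809 genes tested by edgeR (2.58% higher and 4.50% lower in KO). By estimate, 26 of the 57 were higher and 31 lower in KO, with a median log2 change of -0.015, beside -0.016 over all genes tested. This balance rested on single libraries: 50 were higher and 7 lower without CTRL replicate 3, and 13 higher and 44 lower without CTRL replicate 9. The number higher was 17 without CTRL replicate 5 or without KO replicate 4, and 38 without KO replicate 10. With the log2 MT share as a covariate, 8 were higher and 49 lower, and 5 had an unadjusted edgeR p under 0.05, beside 818 of the 13809 genes tested. Little W signal was more frequent among KO libraries than among controls. With the log2 W share as a covariate, 36 were higher and 21 lower, and 0 had an unadjusted edgeR p under 0.05, beside 592 of the 13809 genes tested. The 95% intervals of 51 of the 57 stayed within a 2-fold change up or down.

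ENSGALG00000037325 (plus strand of chromosome 9, 23804524 to 23806330) had the smallest p of the genes that were higher in KO. It stood at 163, 262 and 275 CPM in CTRL and 186, 316 and 423 CPM in KO, and the highest CTRL library lay below the KO median. KO exceeded CTRL by 0.34 on the log2 scale, with an SE of 0.14 (edgeR p = 0.0228, adjusted p = 0.704). CTRL replicate 1 and KO replicate 8 were the lowest library of each group. Without both the difference was 0.34 (edgeR p = 0.00675, adjusted p = 0.808). Without CTRL replicate 1 alone it was 0.27 (edgeR p = 0.0491, adjusted p = 0.779). Without KO replicate 8 alone it was 0.40 (edgeR p = 0.00462, adjusted p = 0.606). The difference was 0.28 with the log2 W share as covariate (edgeR p = 0.0761) and 0.25 with the log2 MT share (edgeR p = 0.0890). ENSGALG00000000905 (minus strand of chromosome 25, 383948 to 386254) came next, at 147, 235 and 266 CPM in CTRL and 195, 240 and 295 CPM in KO, a log2 difference of 0.17 with an SE of 0.11 (edgeR p = 0.145, adjusted p = 0.763). Both were picked for their p and did not pass.

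The genes with the smallest p among those lower in KO were from the group of 5. ENSGALG00000023740 had a mean of 2404 CPM ± 3284 (SD, n = 9) among controls and of 1002 CPM ± 743 (SD, n = 12) among KO libraries. The log2 difference was -1.27 with an SE of 0.60 (edgeR p = 0.0453, adjusted p = 0.705). ENSGALG00000043234 stood at 67.1, 463 and 4507 CPM in CTRL and 129, 379 and 1328 CPM in KO, a log2 difference of -1.19 with an SE of 0.59 (edgeR p = 0.0559, adjusted p = 0.707). These estimates rested on CTRL replicate 2: without it they were -0.46 (edgeR p = 0.394) and -0.54 (edgeR p = 0.334). With the title number as replicate block they were -0.37 (edgeR p = 0.453) and -0.40 (edgeR p = 0.386), although CTRL replicate 2 was kept. Without CTRL replicate 4 they were -1.06 (edgeR p = 0.103) and -0.94 (edgeR p = 0.139). Some other choices made them larger. With the log2 MT share as covariate they were -1.50 and -1.42 (edgeR p = 0.0176 and 0.0223, adjusted p = 0.811 for both). Without CTRL replicate 9 they were -1.43 and -1.36 (edgeR p = 0.0187 and 0.0236, adjusted p = 0.434 and 0.458). All 5 genes had log2 changes of -1.17 to -1.27, and the other 52 lay between -0.13 and 0.34.

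**Figure D3:**
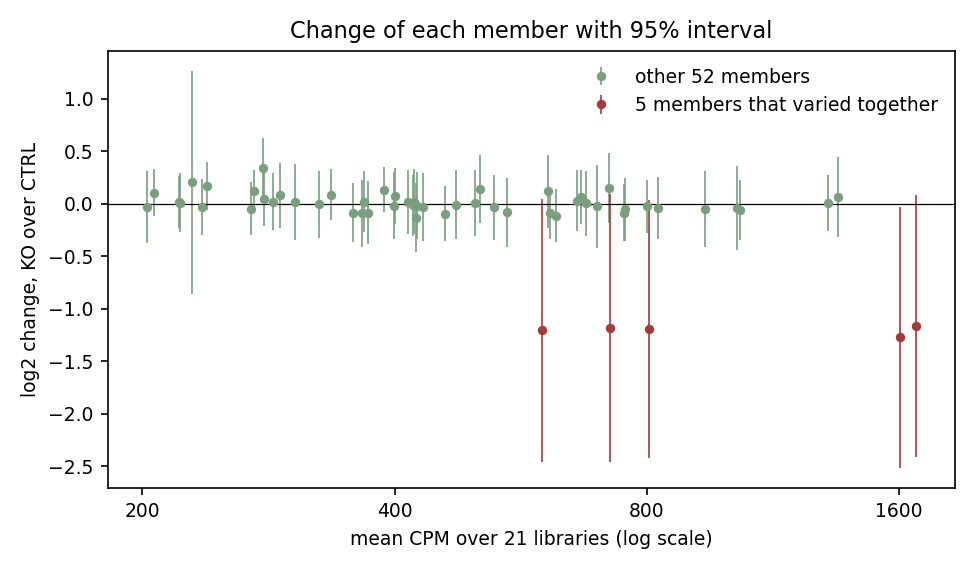
Log2 change of each of the 57 genes, KO over CTRL (edgeR, 95% interval as line), against its mean CPM over 21 libraries on a log scale. The 5 genes that varied together (red) lie at -1.17 to -1.27 with wide intervals, and the other 52 (green) between -0.13 and 0.34.

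The summed level of the 57 genes did not pass either. The mean share of all counts was 3.46% ± 1.29 (SD, n = 9) for controls and 2.98% ± 0.590 (SD, n = 12) for KO libraries (2-sided exact permutation p = 0.285 over 293930 splits, adjusted p = 0.465 over 3 comparisons). The difference was smaller than the SD among controls. It lay mostly in the 5 genes that varied together, which held 0.799% ± 1.04 of all counts in CTRL and 0.348% ± 0.265 in KO. The other 52 genes held 2.66% ± 0.525 in CTRL and 2.64% ± 0.431 in KO. These groups of genes were formed after the values were seen, and their shares were not tested. With MT counts left out of the total, the mean shares of the 57 genes were 3.77% ± 1.42 and 3.29% ± 0.717 (exact permutation p = 0.344, adjusted p = 0.465). The log2 ratio of the counts of the 57 to those of the 749 longer genes was -3.57 ± 0.55 in CTRL and -3.71 ± 0.31 in KO (exact permutation p = 0.465, adjusted p = 0.465). Without CTRL replicate 2, the difference in the share of all counts shrank from -0.474 to -0.142 percentage points. It was -0.680 without CTRL replicate 9, at an adjusted p of 0.158 by the exact permutation test.

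MT transcripts took 6.68%, 7.73% and 11.0% of all counts in the lowest, median and highest CTRL library and 6.72%, 8.12% and 14.3% in KO. Libraries with a high MT share tended to have a high share of the 57 genes, clearly by rank and less so in linear terms. Shares of one total are tied to each other, so the relation was also taken without MT counts in the members' total. The rank correlation of the share without MT with the MT share was 0.64 over 21 libraries (permutation p = 0.00232, adjusted p = 0.00348 over 3 relations). Pearson's r was 0.44 and did not pass (permutation p = 0.0505, adjusted p = 0.0758). For the share of all counts, rho was 0.60 (permutation p = 0.00508, adjusted p = 0.00508) and r was 0.37 (permutation p = 0.0977, adjusted p = 0.0977).

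Of the libraries left out 1 at a time, 1 raised r most. CTRL replicate 2, with the highest share of the 57 genes and an MT share of 8.03%, lay far off the trend, and without it r of the share without MT was 0.65 (permutation adjusted p = 0.00217). It also passed without CTRL replicate 3 (r = 0.51) and without KO replicate 6 (r = 0.49). Without KO replicates 6 and 4, whose MT shares were farthest from the median, r was 0.46 and did not pass (permutation p = 0.0466, adjusted p = 0.0699). Within KO alone r was 0.81 over 12 libraries (permutation p = 0.00100), and within CTRL alone 0.41 over 9 libraries (exact permutation p = 0.266). Whether the groups differ in this relation was not tested.

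Set against the 749 longer abundant genes, the 57 genes again went with the MT share. The log2 ratio of their summed counts had an r of 0.52 with the MT share (permutation p = 0.0159, adjusted p = 0.0478) and a rho of 0.65 (permutation p = 0.00171, adjusted p = 0.00348). The adjusted p of r stood just under the threshold of 0.05 and rose above it when any 1 of 18 of the 21 libraries was left out, up to 0.106 without CTRL replicate 4; it stayed under without CTRL replicate 2, CTRL replicate 3 or KO replicate 6. Without KO replicates 6 and 4 r was 0.57 (permutation p = 0.0110, adjusted p = 0.0329). Within KO it was 0.79 (permutation p = 0.000920) and within CTRL 0.54 (exact permutation p = 0.139).

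**Figure D4:**
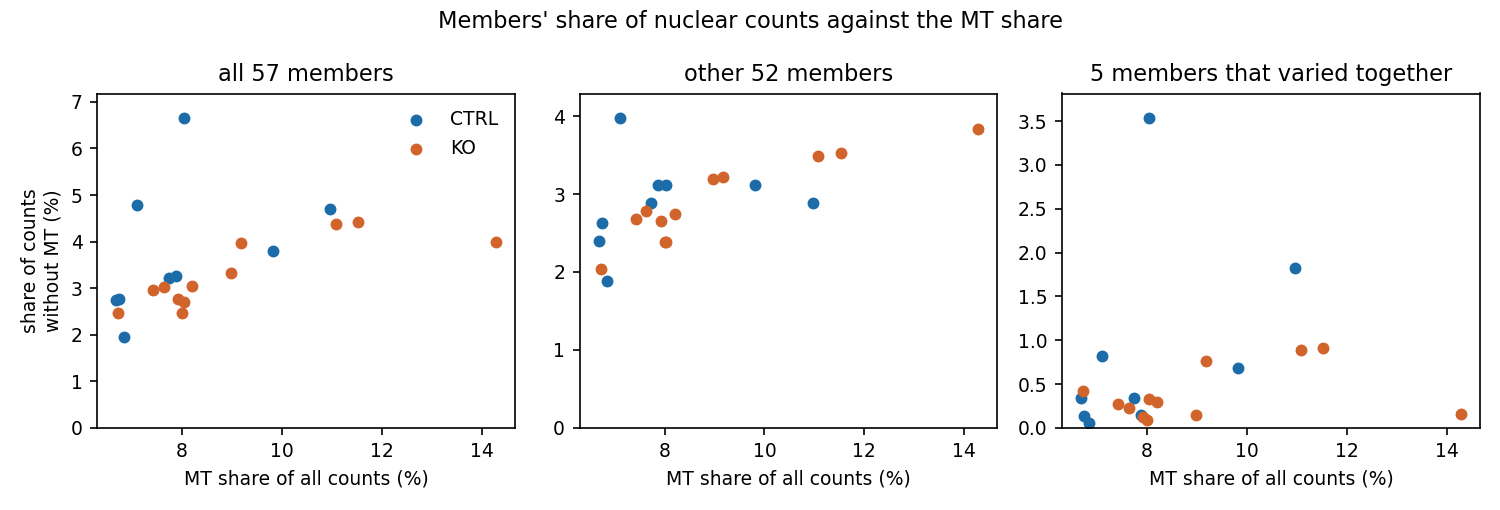
Share of counts without MT (%) held by all 57 genes, by 52 of them and by the 5 genes that varied together, against the MT share of all counts (%), 1 point per library, CTRL blue and KO orange. The 52 genes follow the MT share in KO (r = 0.90 over 12 libraries) but not closely in CTRL (r = 0.22 over 9 libraries). The 5 genes have an r of 0.31 in KO and 0.40 in CTRL and reach 3.53% in CTRL replicate 2.

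The relation is given for the 52 and the 5 genes as a description, since these groups were formed after the values were seen; whether they differ was not tested. For the 52 genes r with the MT share was 0.63 over all 21 libraries, 0.90 within KO and 0.22 within CTRL, where CTRL replicate 3 combined the highest share of the 52 genes (3.97%) with an MT share of 7.10%. It was 0.62 without CTRL replicate 1 and KO replicate 8 and 0.46 without KO replicates 6 and 4. For the 5 genes r was 0.16, with 0.31 within KO and 0.40 within CTRL, and 0.33 without KO replicates 6 and 4. Gene by gene, 56 of the 57 had a positive r between the log2 level in counts without MT and the log2 MT share, with a median of 0.52, against 406 of the 749 longer genes, with a median of 0.055.

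The relation was not particular to the 57 genes but changed with exon length. At a mean of 200 CPM or more, the median r with the log2 MT share was 0.52 for the 57 genes, 0.50 for 57 genes over 1000 and up to 1500 bases, 0.39 for 184 over 1500 and up to 2500 bases, -0.0088 for 367 over 2500 and up to 5000 bases and -0.42 for 141 genes over 5000 bases. Positive values were found for 98.2% of the shortest and 9.22% of the longest genes. Without CTRL replicate 1 and KO replicate 8 the median was 0.53 for the 57 genes and -0.51 for those over 5000 bases. Within groups the order was the same at the ends, with 0.77 and -0.57 in KO, and 0.29 and -0.14 in CTRL.

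**Figure D5:**
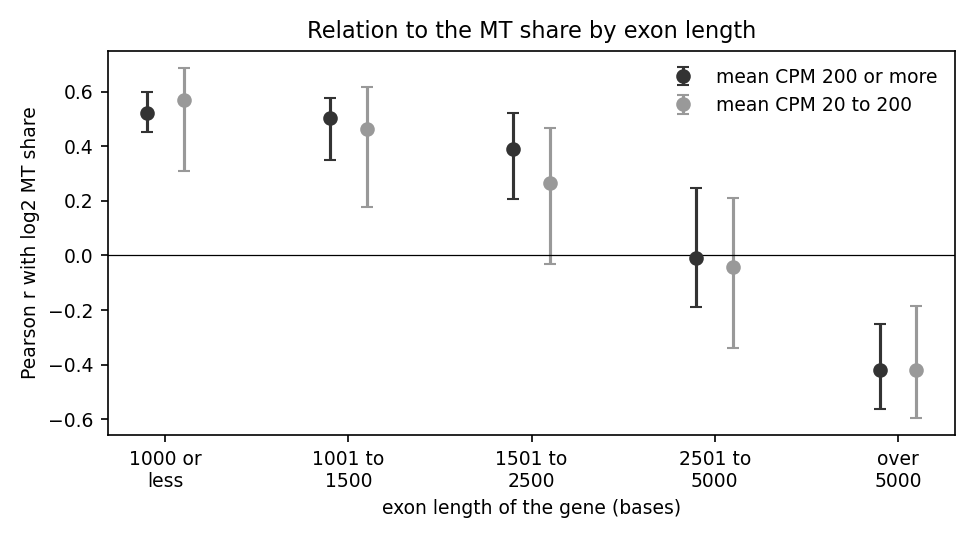
Median Pearson r of a gene's log2 level in counts without MT with the log2 MT share over 21 libraries, by exon length in bases, for genes at a mean of 200 CPM or more (black) and of 20 to 200 CPM (grey); lines span the middle 50% of genes. The median falls from 0.52 for the 57 genes to -0.42 for genes over 5000 bases.

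The length of the other transcripts moved with the 57 genes too. The geometric mean exon length behind the nuclear counts of all other genes ran from 2649 to 3141 bases per library, shortest in KO replicates 4 and 6 and longest in KO replicate 10. Its r with the share of the 57 genes without MT was -0.58 and rho was -0.79 over 21 libraries (permutation adjusted p = 0.00693 and 0.000180 over 3 relations chosen after the data were seen). Without the libraries farthest from its median r was -0.48 (permutation p = 0.0356), within KO -0.89 (permutation p = 0.000130) and within CTRL -0.56 (exact permutation p = 0.116). The MT share itself had an r of -0.71 with this length, with rho at -0.75 (permutation adjusted p = 0.000480 and 0.000315). Without the libraries farthest from the median length r was -0.68 (permutation p = 0.000690), within KO -0.81 (permutation p = 0.000870) and within CTRL -0.42 (exact permutation p = 0.263). Total counts had an r of -0.15 and a rho of -0.044 with the share of the 57 genes (permutation adjusted p = 0.529 and 0.849). What moves the short transcripts and MT together was not tested.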

How the data were processed

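The authors deposited raw counts per gene for each library, with gene positions and exon lengths. Per the file headers, featureCounts 2.0.1 counted paired fragments on the reverse strand against exons of Ensembl release 101 (GRCg6a), with no option for reads that map or overlap more than once, so near-identical gene copies can be undercounted. Per the submitters' processing notes the aligner was STAR. Per the labels' protocols, 50 ng of RNA and 14 PCR cycles were used.

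Groups and replicate numbers came from the sample titles and table columns were matched by sample description. The labels name no culture or clutch, so p-values measure the spread between these samples. No libraries of a group agreed within sampling noise (chi-square over degrees of freedom at least 29.2). The members and lists were chosen with earlier results of these data known.

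Genes passing filterByExpr were tested with edgeR 4.0.16 in R 4.3.3 (TMM, group alone in the model, Benjamini-Hochberg adjustment), checked on simulated data. Log2 CPM values added 0.5 to each count and were not scaled by TMM. The r with the most abundant gene and the r between neighbours used these values. Other correlations between pairs of genes used TMM-scaled log2 CPM with a prior count of 2. Summed values were compared by exact permutation and correlations by 100000 permutations (all orders within CTRL), 2-sided. Genes named are those highest in mean (3), smallest in p per direction (2), largest and smallest in SD (2 each), highest and lowest in r with MT, most like the top gene (2) and next to the limits; others were chosen after their values were seen. Alternatives covered scaling, the filter, DESeq2 1.42.0, covariates, the limits of the choice and left-out libraries. Planned marker and gene lists needed symbols and were not analysed here.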

Additional observations from a re-analysis of the deposited data

Results flagged for a closer look

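Of 21 values per library examined among the 9 controls, 6 had 1 library far from the other 8. Chance alone flags about 1 in 20 of values that were not picked for extremes. Some of these 21 were picked for extremes in the same data, so 6 of 21 cannot be set against that rate. CTRL replicate 2 lay far above the other controls in the share of all counts held by the 5 genes that varied together (3.25%), and in ENSGALG00000017347 (9829 CPM), ENSGALG00000023740 (10387 CPM) and ENSGALG00000035309 (4346 CPM). These 4 values are not independent of each other. CTRL replicate 1 lay far below the other controls in ENSGALG00000037325, at 163 CPM. CTRL replicate 3 lay far above them in ENSGALG00000016775, at 618 CPM. The KO group, with 12 libraries, was not examined this way.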

How the results depend on the processing

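The number of genes past the threshold stayed at 0, among the 57 and among all genes, in each of 30 alternatives. The differences between the groups in summed values kept their sign and did not pass in any alternative (adjusted p 0.158 to 0.918). The replicate numbers of the titles were not taken to pair the samples. Only 6 of 9 pairs with the same title number, not all, had a correlation of deviations over 0.1 (lowest -0.43). Of 9 controls, 1 matched its own title number best. The sample descriptions carry partly different numbers. Only pairs 1, 2, 3 and 7 join libraries with the same description number, with correlations of 0.12, 0.43, 0.29 and 0.33. Pairing by description number was not tested. With the title number as replicate block, edgeR called 0 genes and the median log2 change of the 57 was 0.12 (49 higher, 8 lower). The share of all counts then differed by -0.264 percentage points over the 9 pairs. KO replicates 10, 11 and 12 share no title number with a control, so they gave no information on the change between groups here. The median log2 change of the 57 ran from -0.13, with the log2 MT share as covariate, to 0.12. The median pairwise r was 0.71 without both CTRL replicate 1 and KO replicate 8, and 0.61 to 0.68 with 1 library left out.

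The relation to the MT share depended on the choices. For the share without MT, r passed with a length of 1200 or less (0.47), a mean CPM of 100 or more (0.48), without the 10 most abundant genes (0.56), on the log2 scale (0.51), within KO (0.81) and as Spearman's rho (0.64); for the share of all counts it passed without the 10 most abundant genes (0.47), on the log2 scale (0.45), within KO (0.76), as rho (0.60), without CTRL replicate 2 (0.58) and without KO replicate 6 (0.45). For the ratio to longer genes, r no longer passed with a length of 800 or less (0.48), a mean CPM of 400 or more (0.50), without both CTRL replicate 1 and KO replicate 8 (0.50) and within CTRL (0.54). With 1 library left out, r ran from 0.39 to 0.65 for the share without MT, from 0.32 to 0.58 for the share of all counts and from 0.48 to 0.67 for the ratio; the highest values were without CTRL replicate 2. The cause was not tested. The sign of r was positive in all of these alternatives.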

Other observations

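Short genes of lower level also had a positive relation to the MT share; the lists were not tested against each other. Summed over 305 genes that met the terms of the choice but for a mean of 20 to 200 CPM, the share of counts without MT had an r of 0.83 with the MT share over 21 libraries, 0.88 within KO and 0.63 within CTRL, and of 0.86 with the share of the 52 steadier genes. This was a description of a list chosen after the data were seen. Among genes of 20 to 200 CPM the median r of single genes with the log2 MT share was 0.57 for these 305 genes, 0.46 for 563 genes over 1000 and up to 1500 bases, 0.27 for 1834 over 1500 and up to 2500 bases, -0.044 for 2826 over 2500 and up to 5000 bases and -0.42 for 646 genes over 5000 bases. Within CTRL the medians at the ends were 0.47 and -0.061, and within KO 0.65 and -0.63.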
